A study of Mus musculus with 8 samples.

Results

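Cytotoxic effector genes encode the proteins with which natural killer (NK) cells and cytotoxic T cells kill target cells and activate their surroundings. The 9 genes described here were fixed by name and were found by their symbols in the deposited table: the granzymes Gzma, Gzmb, Gzmk and Gzmm, perforin (Prf1), the granule membrane protein gene Nkg7, the NK cell receptor gene Ncr1, the Fas ligand gene Fasl and the interferon-gamma gene Ifng. All 9 were found, each in 1 row, among 37979 listed genes, and all 9 had a value above 0 in at least 1 library and entered the test of 27414 genes.

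Bulk RNA-seq was performed on pericytes and smooth muscle cells (SMCs) sorted from hindlimb muscles of young adult Ai14+/-;SM22α-Cre+ mice of both sexes, with 4 libraries for each cell type. These mice carry Cre under the SM22α promoter, a smooth muscle promoter, and a tdTomato reporter that Cre turns on, so that the SMC label rests on the activity of that promoter. Both populations were PDGFRβ+ and DAPI-low and were negative in the FITC channel that held the CD31 (endothelial) and CD45 (leukocyte) antibodies. Pericytes were tdTomato- and SMCs were tdTomato+. Each library combined several sorts, and all 8 libraries carry the same batch label.

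In the killing of a target cell, perforin forms pores through which granzymes, a family of serine proteases stored in the same granules, enter the cell and trigger its death. Fas ligand acts in parallel by engaging the death receptor Fas. Interferon-gamma is the main cytokine of these cells, and it acts through its receptor on almost every cell type. The T-box factors encoded by Tbx21 and Eomes and the Runt factor encoded by Runx3 are known drivers of the cytotoxic program.

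The proximal promoters are shown first, because transcription factor genes of this program are among the results. The bases before the transcription start of each gene were taken from RefSeq and placed on NCBI Build 37, the genome used by the authors, by an exact match. The 9 genes had 11 RefSeq start sites, and a window of 250 bases before each was searched on both strands. The RUNX core letters ACCACA, read as TGTGGT on the other strand, were present for 6 of 9 genes (Gzma, Gzmb, Gzmm, Ncr1, Nkg7 and Prf1), in 7 of 11 windows, against 14% of 32851 windows of the same length across the genome. The T-box letters TCACACC were present for Gzmk, Gzmm and Nkg7, against 3.33% of all windows. The NFAT letters GGAAAA were present for 3 genes against 20.4% of windows, the ETS letters GGAAGT for 3 genes against 19.7%, and the AP-1 letters TGANTCA for Gzmb alone against 6.75%. No match overlapped a match of another of these motifs. A match of letters describes the sequence only. In the 4 promoters below, which hold a RUNX match within 140 bases of the start, those 140 bases before the start are written 5′ to 3′ along the gene, with the RUNX letters in capitals. Gzma lies on the minus strand (chr13:113891190-113891329), as does Gzmb (chr14:56881172-56881311), while Prf1 (chr10:60760444-60760583) and Ncr1 (chr7:4289186-4289325) lie on the plus strand.
Gzma: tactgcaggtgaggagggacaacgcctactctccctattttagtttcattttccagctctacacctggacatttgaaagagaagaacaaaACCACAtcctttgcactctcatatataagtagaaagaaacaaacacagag
Gzmb: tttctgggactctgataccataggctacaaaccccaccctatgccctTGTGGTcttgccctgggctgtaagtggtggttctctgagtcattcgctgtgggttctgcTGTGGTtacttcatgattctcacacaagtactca
Prf1: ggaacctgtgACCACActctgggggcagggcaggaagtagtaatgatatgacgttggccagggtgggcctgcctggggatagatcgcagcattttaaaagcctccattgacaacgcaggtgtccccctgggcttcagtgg
Ncr1: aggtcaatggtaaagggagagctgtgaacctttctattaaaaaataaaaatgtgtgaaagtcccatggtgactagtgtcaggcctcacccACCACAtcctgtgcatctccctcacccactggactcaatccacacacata
The RUNX letters lie 50 to 45 bases before the start of Gzma, 130 to 125 bases before that of Prf1, and 50 to 45 bases before the Ncr1 start shown. Gzmb holds them at 93 to 88 and again at 34 to 29 bases before its start.

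For each of the 9 cytotoxic effector genes the lowest pericyte library exceeded the highest SMC library, a pattern shared by 12.1% of the 27414 genes tested. Values were compared as log2(FPKM + 1), where FPKM are fragments scaled to transcript length and to the mapped reads of a library, with limma's moderated test and Benjamini-Hochberg adjustment (q value). A gene was called when its q value was below 0.05 and its difference exceeded 2 on this log2 scale, which understates the change of genes with low FPKM. By this rule 8 of 9 genes were called higher in pericytes, against 3.24% of all genes tested (888 genes), and Gzmk was not called. None of the 9 was called higher in SMCs, against 2.66% of all genes (728 genes). With each library rescaled to a common sum (TPM), 822 genes were called higher in pericytes and 1019 in SMCs, and the same 8 effector genes were called. The median difference over the 9 genes was 4.47, and over all genes tested it was 0.02. The labels do not say whether the libraries of a group share animals, so q values measure the spread between these libraries only.

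**Figure D1:**
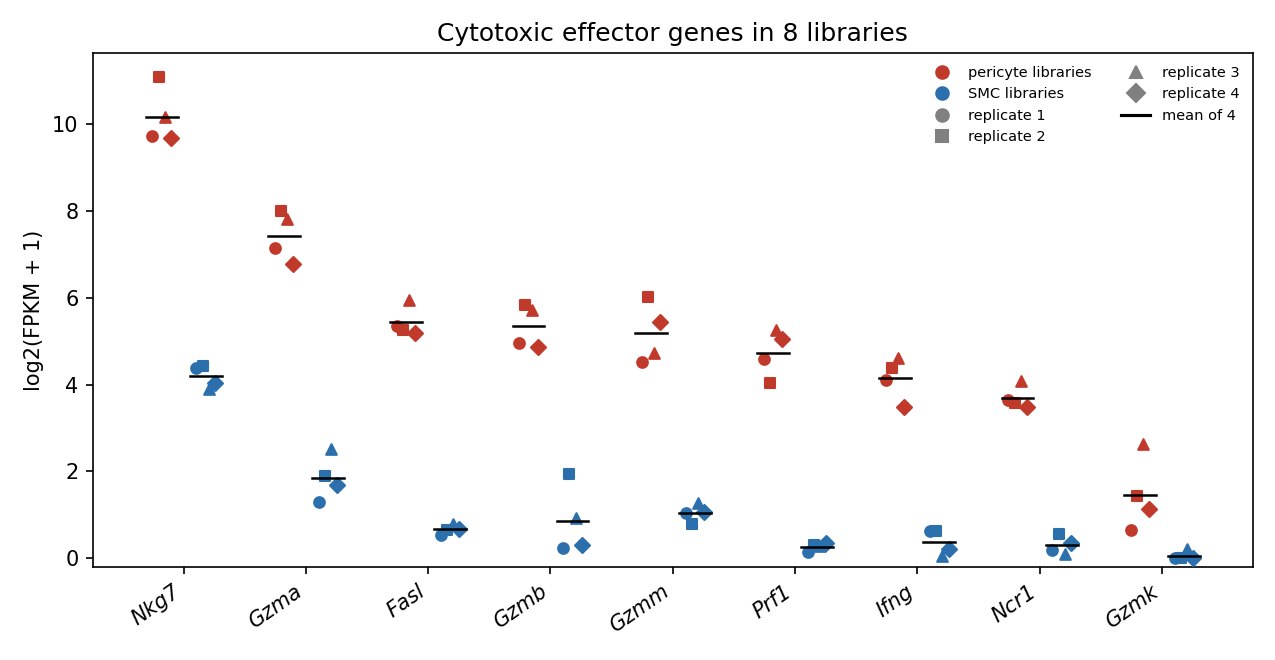
Level of each cytotoxic effector gene, as log2(FPKM + 1) on the vertical axis, in 4 pericyte libraries (red) and 4 SMC libraries (blue), with the replicate number given by the symbol and the mean of 4 libraries by a line. For all 9 genes the 4 pericyte libraries lie above the 4 SMC libraries, with means from 10.16 (Nkg7) to 1.47 (Gzmk) in pericytes.

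The libraries carried markers of leukocytes, and these moved with the groups. Ptprc, the gene of CD45, had 80.6 to 230.3 FPKM in pericyte libraries and 4.34 to 11.9 FPKM in SMC libraries. Pecam1, the gene of CD31, had 25.0 to 59.7 FPKM and 102 to 301 FPKM (difference -2.06, limma q = 0.0087). Over all genes tested, 3.24% were called higher in pericytes and 2.66% in SMCs, and each count of called markers below stands beside these shares. Summed over the T cell markers Cd3d, Cd3e, Cd3g, Cd4, Cd8a and Cd8b1, the level was 1040 to 1759 FPKM in pericyte libraries and 13.54 to 41.5 FPKM in SMC libraries, and 5 of 6 markers were called higher in pericytes. The NK cell markers (Klrb1c, Klrd1, Klrk1, Klre1, Klra8 and Itga2) summed to 99.2 to 187 FPKM in pericyte libraries and 4.30 to 9.97 FPKM in SMC libraries, and 5 of 6 were called higher in pericytes. Among them Klrb1c, the gene of the NK1.1 antigen, had 3.67 to 10.7 FPKM against 0.107 to 0.317 FPKM, and Klra8 was listed at 0 in SMC replicates 2 and 3. The B cell markers summed to 759 to 1964 FPKM against 8.77 to 30.0 FPKM, and all 4 were called. Macrophage markers overlapped between the groups, at 760.2 to 1749 FPKM in pericyte libraries and 905 to 1501 FPKM in SMC libraries, with 0 of 5 called higher in pericytes and 1 (Mrc1) in SMCs. Neutrophil markers also overlapped in sum, at 1135 to 4926 FPKM against 205 to 2588 FPKM, but 2 of 4 were called higher in pericytes. These were the granule enzyme genes Mpo, at 262 to 534 FPKM against 0.696 to 39.8 FPKM (difference 5.37, limma q = 0.0069), and Elane, at 161 to 1098 FPKM against 1.84 to 65.9 FPKM (difference 4.82, limma q = 0.026). Mast cell markers summed to 42.4 to 67.8 FPKM against 3.20 to 18.8 FPKM, with 1 of 5 called higher in pericytes. In the same libraries the pericyte markers (Pdgfrb, Rgs5, Cspg4, Kcnj8 and Abcc9) summed to 22.2 to 62.1 FPKM in pericyte libraries and 55.9 to 236 FPKM in SMC libraries, and 0 of 5 were called higher in pericytes. Pdgfrb, the gene of the sorted receptor, had 3.21 to 17.6 FPKM in pericyte libraries and 15.6 to 91.5 FPKM in SMC libraries (limma q = 0.097). Fibroblast markers summed to 777 to 1617 FPKM and 3024 to 4366 FPKM, and 4 of 5 were called higher in SMCs. The remaining marker, the decorin gene Dcn, had 509 to 1165 FPKM in pericyte libraries, which is included in these sums, and was listed at 0 in all 4 SMC libraries. No direction is read from it, because an exact 0 in a table without counts can be a failed estimate, and Vamp7, a gene of general use, was listed at 0 in all 8 libraries. The smooth muscle markers (Acta2, Tagln, Myh11, Cnn1 and Smtn) overlapped in sum, at 569 to 1856 FPKM in pericyte libraries and 1715 to 5514 FPKM in SMC libraries, and 0 of 5 were called. Pericyte and SMC libraries are therefore named here after the sort, not after their markers. In bulk libraries, fewer cells of a type and less RNA per cell cannot be told apart. The part of the leukocytes in the differences below was not tested.

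The effector sum was also set beside the T cell and NK cell markers of the same library. The 9 effector genes summed to 1086 to 2629 FPKM in pericyte libraries and 20.2 to 28.7 FPKM in SMC libraries, which was 0.139% to 0.222% and 0.00289% to 0.00438% of all FPKM of a library. Divided by the summed T cell markers of the same library, this sum was 1.0 to 1.49 in pericyte libraries and 0.486 to 1.77 in SMC libraries. Divided by the summed NK cell markers, it was 6.47 to 17.8 in pericyte libraries and 2.02 to 5.18 in SMC libraries, with no overlap. This second ratio overlapped without Nkg7 in the effector sum, at 1.60 to 3.11 in pericyte libraries and 0.488 to 1.94 in SMC libraries. It also overlapped without Itga2 in the NK cell sum, at 6.52 to 17.8 and 2.35 to 7.17, since Itga2 was the NK cell marker that was not called (difference -0.48, limma q = 0.43). The ratio of Gzma to Cd3e, a T cell receptor chain, was 0.761 to 1.55 in pericyte libraries and 0.772 to 3.56 in SMC libraries, and that of Prf1 to Cd3e was 0.0948 to 0.225 and 0.0956 to 0.176. Both ratios overlapped between the groups, whereas the levels themselves did not. Cd3e had a difference of 5.89 (standard error 0.23, limma q = 1.3e-05), and the differences of the effector genes ran from 1.42 to 5.97 on the same scale. The plot of summed levels shows the same markers library by library.

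**Figure D2:**
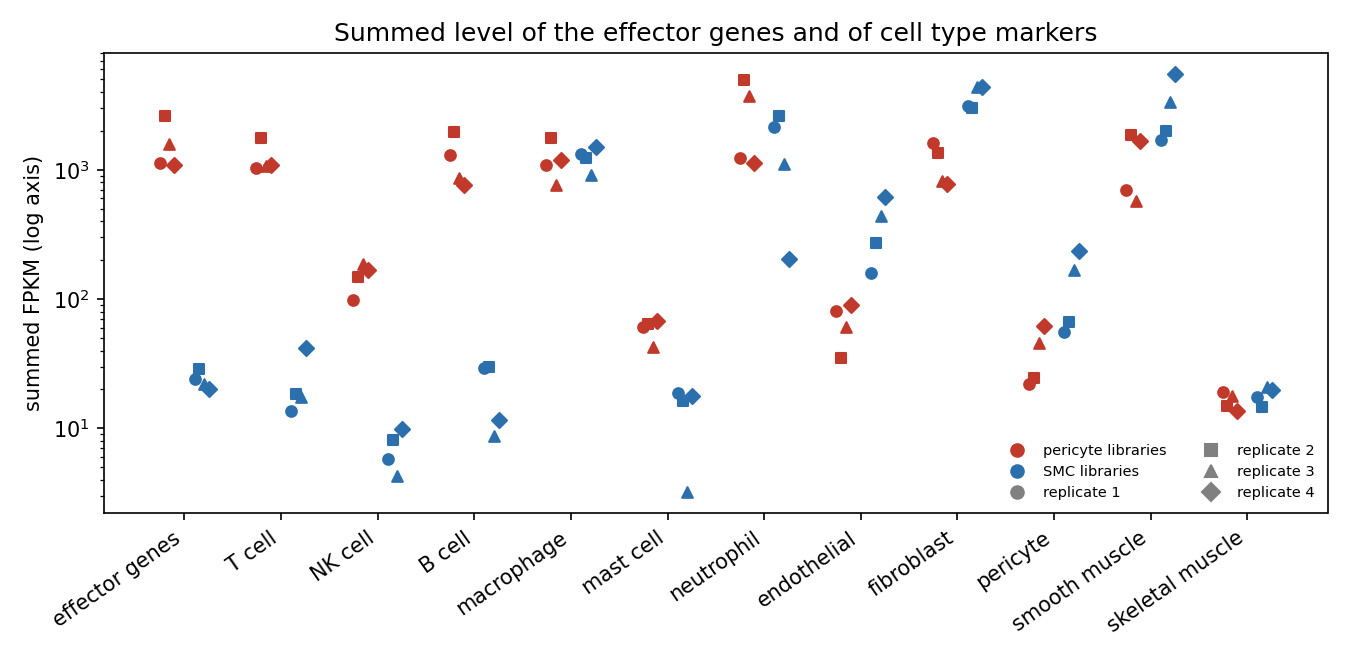
Summed FPKM (log axis) of the 9 effector genes and of 11 sets of cell type markers in each pericyte library (red) and SMC library (blue), with symbols for the replicate number. Effector genes, T cell, NK cell, B cell and mast cell markers are higher in all pericyte libraries, the fibroblast and endothelial sums are higher in all SMC libraries (the fibroblast gene Dcn is listed at 0 in all SMC libraries), and the macrophage and neutrophil sums overlap.

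Perforin, encoded by Prf1, is the pore-forming protein of cytotoxic granules. Its gene spans chr10:60760584-60767011 on the plus strand of NCBI Build 37. Prf1 had 23.1, 15.5, 37.4 and 32.2 FPKM in pericyte replicates 1 to 4 and 0.112, 0.230, 0.220 and 0.274 FPKM in SMC replicates 1 to 4. The means were 27.1 ± 9.70 and 0.209 ± 0.0687 FPKM (SD, n = 4 each), and the lowest pericyte library was 56.8 times the highest SMC library, the widest gap in FPKM among the 9 genes. The difference was 4.47 on the log2 scale (standard error 0.25, limma q = 4.8e-05). Prf1 was lowest in pericyte replicate 2, the only one of the 9 genes to be so in FPKM, and highest in replicate 3.

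Granzyme A, a tryptase, was the most abundant granzyme in both groups. Gzma (chr13:113884033-113891187, minus strand) had 141, 254, 222 and 109 FPKM in pericyte replicates 1 to 4 and 1.45, 2.71, 4.77 and 2.21 FPKM in SMC replicates 1 to 4. The means were 182 ± 67.5 and 2.78 ± 1.42 FPKM (SD, n = 4 each). Pericyte replicates 2 and 3 were high and replicates 1 and 4 low, and every pericyte library was at least 23.0 times the highest SMC library. The difference was 5.59 (standard error 0.35, limma q = 6.9e-05).

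Granzyme B cleaves after aspartate and activates caspases. Gzmb (chr14:56877693-56881097, minus strand) had 30.1, 56.5, 51.8 and 27.99 FPKM in pericyte replicates 1 to 4 and 0.174, 2.85, 0.918 and 0.229 FPKM in SMC replicates 1 to 4. The means were 41.6 ± 14.6 and 1.04 ± 1.25 FPKM (SD, n = 4 each). Its pericyte libraries followed the order of Gzma, with replicates 2 and 3 high, while SMC replicate 2 was well above the other SMC libraries and 16.3 times the lowest. The difference was 4.49 (standard error 0.43, limma q = 4.3e-04). Granzyme M is a protease of the granules of innate killer cells. Gzmm (chr10:79151765-79158006, plus strand) had 21.9, 64.2, 25.6 and 42.6 FPKM in pericyte replicates 1 to 4 and 1.07, 0.741, 1.42 and 1.11 FPKM in SMC replicates 1 to 4. With means of 38.6 ± 19.3 and 1.08 ± 0.280 FPKM (SD, n = 4 each), pericyte replicates 2 and 4 were the high ones, the SMC values lay within a factor of 1.92 of each other, and the difference was 4.13 (standard error 0.33, limma q = 2.0e-04).

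Granzyme K, a second tryptase, was the lowest of the 9 genes. Gzmk (chr13:113961816-114016116, minus strand) had 0.569, 1.72, 5.21 and 1.21 FPKM in pericyte replicates 1 to 4. It was listed at 0 in SMC replicates 1, 2 and 4 and had 0.154 FPKM in SMC replicate 3. The pericyte mean was 2.18 ± 2.07 FPKM (SD, n = 4). The values spread over a factor of 9.15, and the highest, in replicate 3, stood well above the others. The difference of 1.42 (standard error 0.39, limma q = 0.039) missed the threshold of 2, and over the 8 fits that omit a library the q value ranged from 0.014 to 0.088. With a pseudocount of 0.1 in place of 1 the difference was 3.76 (limma q = 0.0035), which passes the call. Gzmk overlaps Esm1 (chr13:113999867-114008306), an endothelial gene on the opposite strand, and the sources used here do not state whether reads were assigned by strand. Esm1 had 0.519 to 1.10 FPKM in pericyte libraries and 6.28 to 10.0 FPKM in SMC libraries, the opposite direction to Gzmk. None of the other 8 genes overlaps an annotated gene.

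Nkg7, a membrane protein of cytotoxic granules, had the highest level of the 9 genes and the largest difference on the log2(FPKM + 1) scale (with a pseudocount of 0.1, Prf1 exceeded it, at 6.41 against 6.05). Nkg7 (chr7:50692443-50693616, plus strand) had 844, 2169.7, 1152 and 817 FPKM in pericyte replicates 1 to 4 and 20.0, 20.6, 13.9 and 15.3 FPKM in SMC replicates 1 to 4. The means were 1246 ± 635 and 17.5 ± 3.35 FPKM (SD, n = 4 each). By mean FPKM it ranked 105 of 37979 genes in pericyte libraries and 4847 in SMC libraries. Pericyte replicate 2 was the highest, by a margin that narrowed to 1823 against 1604 in replicate 3 with TPM scaling, and the SMC libraries lay within a factor of 1.48. The difference was 5.97 (standard error 0.32, limma q = 4.2e-05), and it was 5.67 without pericyte replicate 2. Nkg7 made up 72.3% to 82.5% of the summed FPKM of the 9 genes in pericyte libraries and 62.6% to 83.5% in SMC libraries.

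Ncr1 encodes NKp46, an activating receptor that marks NK cells and related innate lymphoid cells. Ncr1 (chr7:4289326-4296766, plus strand) had 11.5, 11.0, 15.8 and 10.2 FPKM in pericyte replicates 1 to 4 and 0.134, 0.467, 0.0654 and 0.283 FPKM in SMC replicates 1 to 4. The means were 12.1 ± 2.51 and 0.237 ± 0.178 FPKM (SD, n = 4 each). The pericyte libraries lay within a factor of 1.55 in FPKM, and between 9.26 and 22.0 with TPM scaling. The difference was 3.40 (standard error 0.16, limma q = 2.2e-05).

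Fasl, whose product is the ligand of the death receptor Fas, and Ifng, whose product is interferon-gamma, are effector genes that act outside the granule. Fasl (chr1:163710820-163718626, minus strand) had 39.5, 37.4, 60.4 and 35.4 FPKM in pericyte replicates 1 to 4 and 0.456, 0.576, 0.728 and 0.608 FPKM in SMC replicates 1 to 4. With means of 43.2 ± 11.6 and 0.592 ± 0.112 FPKM (SD, n = 4 each), its groups were tight apart from a high pericyte replicate 3, and with a difference of 4.76 (standard error 0.17) it had the smallest q value of the 9 genes (limma q = 8.5e-06). Ifng (chr10:117878103-117882948, plus strand) had 16.3, 19.9, 23.7 and 10.2 FPKM in pericyte replicates 1 to 4 and 0.555, 0.553, 0.0415 and 0.160 FPKM in SMC replicates 1 to 4. The means were 17.5 ± 5.73 and 0.327 ± 0.266 FPKM (SD, n = 4 each). SMC replicates 1 and 2 were above replicates 3 and 4, and the difference was 3.77 (standard error 0.26, limma q = 1.1e-04).

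**Figure D3:**
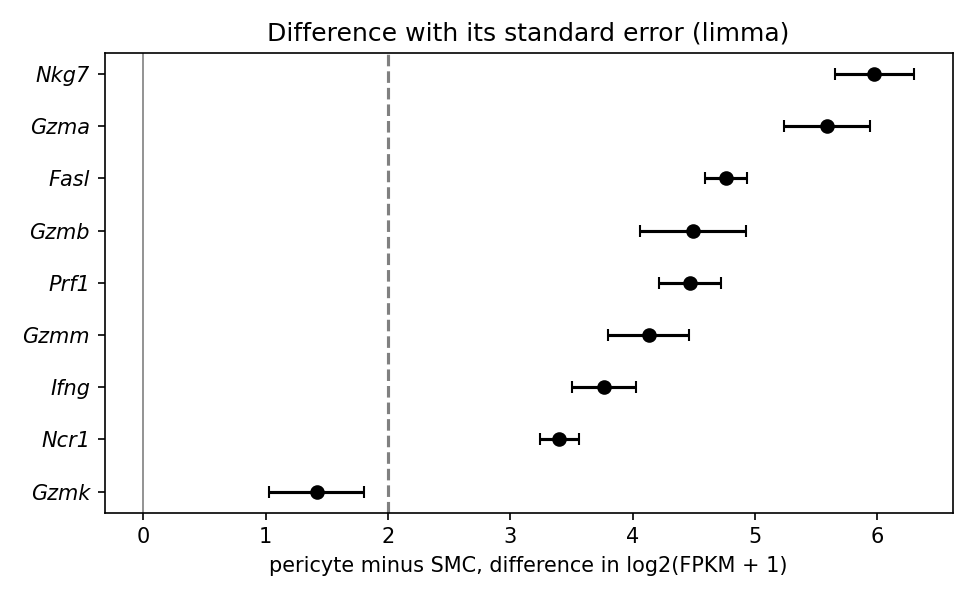
Difference between pericyte and SMC libraries in log2(FPKM + 1) for each effector gene, with its standard error from limma as a bar. The dashed line marks the difference of 2 used for a call. Gzmk, at 1.42, lies left of it and the other 8 genes lie between 3.40 and 5.97.

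The order of the levels, which FPKM allow because they are scaled to transcript length, was led by the same genes in both groups. By mean log2(FPKM + 1) in pericytes the order was Nkg7 (10.16), Gzma (7.43), Fasl (5.43), Gzmb (5.35), Gzmm (5.18), Prf1 (4.74), Ifng (4.15), Ncr1 (3.70) and Gzmk (1.47). Nkg7 and Gzma each stood apart from the next gene in all 4 pericyte libraries, and so did Ncr1 from Gzmk. From Fasl down to Ncr1, each neighbour in this order overlapped the next. In SMC libraries the order was Nkg7 (4.19), Gzma (1.85), Gzmm (1.05), Gzmb (0.85), Fasl (0.67), Ifng (0.39), Ncr1 (0.30), Prf1 (0.27) and Gzmk (0.05). Here Nkg7 stood apart from the other genes. Gzma did not overlap Gzmm, the next by mean, but it overlapped Gzmb, which exceeded it in SMC replicate 2 (2.85 against 2.71 FPKM), and from Gzmm downwards every neighbour overlapped the next. Prf1 was sixth in pericytes and eighth in SMCs. In 5 genes (Gzmk, Prf1, Ncr1, Fasl and Ifng) every SMC library was below 1 FPKM.

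Within the pericyte group the highest and lowest replicate differed by gene. The shares of all genes that were highest or lowest in each replicate were not computed, so the counts below describe these 9 genes only. The highest FPKM was in replicate 3 for 5 genes (Gzmk, Prf1, Ncr1, Fasl and Ifng) and in replicate 2 for the other 4, and the lowest was in replicate 4 for 6 genes. Replicate 2 had the largest total FPKM, 1190435 against 690247 to 782014 in the other pericyte libraries. With each library rescaled to a common sum, replicate 3 was the highest for 7 of 9 genes and replicate 2 for Nkg7 only, and the lowest was replicate 4 for 4 genes and replicate 2 for 3. In FPKM, the transcription factor genes Tbx21, Eomes and Runx3, described below, were also highest in replicate 3. The granule genes Ctsw, Srgn and Gzmc, also described below, were highest in replicate 2.

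Other contents of the cytotoxic granule differed by gene. Of 10 listed genes 8 were tested, and 3 were called higher in pericytes (Ctsw, Srgn and Gzmc) and 0 in SMCs, beside 3.24% and 2.66% of all genes. Their median difference was 0.42, against 0.02 over all genes. Ctsw, which encodes the lymphocyte protease cathepsin W, had 182 to 314 FPKM in pericyte libraries and 0.567 to 2.99 FPKM in SMC libraries, a difference of 6.22 (standard error 0.33, limma q = 4.0e-05). Srgn, which encodes the granule proteoglycan serglycin, was high in both groups, at 1010 to 2203 FPKM and 235 to 344 FPKM, with a difference of 2.27 (limma q = 8.0e-04). Gzmc, the granzyme gene next to Gzmb on chromosome 14, had 4.05, 11.0, 4.601 and 1.70 FPKM in pericyte replicates 1 to 4 and 0 to 0.609 FPKM in SMC libraries. Its difference of 2.16 (limma q = 0.010) was 1.78 without pericyte replicate 2, which ends the call. The other granzyme genes of that cluster, Gzmd, Gzme and Gzmf, did not exceed 0.063 FPKM in any library, and Gzmg and Gzmn were listed at 0 in all 8. Ctsc, whose product activates granzymes, had 182 to 207 FPKM in pericyte libraries and 75.5 to 197 FPKM in SMC libraries (limma q = 0.084), and the lysosomal membrane gene Lamp1 had 9.93 to 32.9 FPKM and 16.9 to 51.6 FPKM (limma q = 0.25).

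Of 8 tested genes for the transport and release of granules, 1 was called higher in pericytes and 0 in SMCs (3.24% and 2.66% over all genes), with a median difference of 0.66. The called gene was Stxbp2, which encodes the fusion protein Munc18-2, at 59.8 to 76.7 FPKM against 7.86 to 14.4 FPKM (difference 2.66, limma q = 1.2e-04). Unc13d, which encodes the granule priming factor Munc13-4, had 25.6 to 34.6 FPKM against 3.69 to 14.4 FPKM and a difference of 1.83 (limma q = 0.016). It passed the call without SMC replicate 1 (difference 2.04) and without SMC replicate 2 (difference 2.10). Stx11, a syntaxin of granule fusion, had 19.9 to 32.2 FPKM and 21.2 to 25.4 FPKM (limma q = 0.89), and Rab27a, a GTPase that docks granules, had 5.41 to 8.82 FPKM and 2.09 to 6.17 FPKM (limma q = 0.069). Vamp7 was listed at 0 in all 8 libraries.

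Of 9 tested transcription factor genes of cytotoxic lymphocytes, 5 were called higher in pericytes and 0 in SMCs, where all genes gave 3.24% and 2.66%, with a median difference of 2.60. Stat4, which relays interleukin-12 signals, had 50.5 to 97.4 FPKM in pericyte libraries and 1.51 to 2.64 FPKM in SMC libraries (difference 4.56, standard error 0.26, limma q = 4.8e-05). Tbx21, the gene of T-bet, had 15.2, 18.6, 62.2 and 35.2 FPKM in pericyte replicates 1 to 4 and 0.234, 0.304, 0.796 and 1.58 FPKM in SMC replicates 1 to 4. The difference was 4.14 (standard error 0.47, limma q = 8.8e-04). Runx3 had 8.39, 15.4, 23.5 and 18.6 FPKM in pericyte replicates and 0.415 to 0.860 FPKM in SMC libraries (difference 3.34, limma q = 2.7e-04). Eomes had 2.73, 4.91, 11.1 and 9.25 FPKM in pericyte replicates and 0.0572 to 0.147 FPKM in SMC libraries (difference 2.71, limma q = 0.0017). In FPKM, Tbx21, Runx3 and Eomes were all highest in pericyte replicate 3 and lowest in replicate 1. With TPM scaling replicate 3 was still the highest for each, but Tbx21 was lowest in replicate 2 (15.6 against 22.0 in replicate 1). Ets1, a factor of many lymphocytes and also of endothelium, was the fifth called gene, with a difference of 2.60 (limma q = 0.0078). Prdm1, Zeb2, Id2 and Nfil3 had differences between -0.44 and 0.16 and were not called.

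All 13 listed receptors and adaptors that activate cytotoxic lymphocytes had a q value below 0.05 and were higher in pericytes, against 10.6% of all genes by that rule, and 9 of 13 also passed the difference of 2, against 3.24%. Il2rb, a receptor chain for interleukin-15, had 106.7, 105.1, 297.5 and 213.7 FPKM in pericyte replicates 1 to 4 and 1.34 to 5.76 FPKM in SMC libraries (difference 5.38, standard error 0.45, limma q = 2.4e-04). Hcst, the adaptor DAP10 of the receptor NKG2D, had 367 to 956 FPKM against 10.6 to 15.7 FPKM (difference 5.33, limma q = 4.1e-05). Cd247, the zeta chain shared by T cell and NK cell receptors, had 119 to 157 FPKM against 3.97 to 7.61 FPKM (difference 4.33, limma q = 2.6e-05). The interleukin-12 receptor gene Il12rb2 had a difference of 3.45 (limma q = 0.0020). The other chain, Il12rb1, had 2.47 to 4.45 FPKM against 0.0607 to 0.143 FPKM and missed the call at 1.89 (limma q = 1.5e-04), but passed it with a pseudocount of 0.1 (3.97) and with TPM scaling (2.06). Fcer1g and Tyrobp, adaptors that myeloid cells also use, were high in both groups. Tyrobp had 664 to 1413 FPKM in pericyte libraries and 254 to 318 FPKM in SMC libraries (difference 1.99, limma q = 0.0012), and passed the call at 2.22 without pericyte replicate 1 and at 2.06 without SMC replicate 4.

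**Figure D4:**
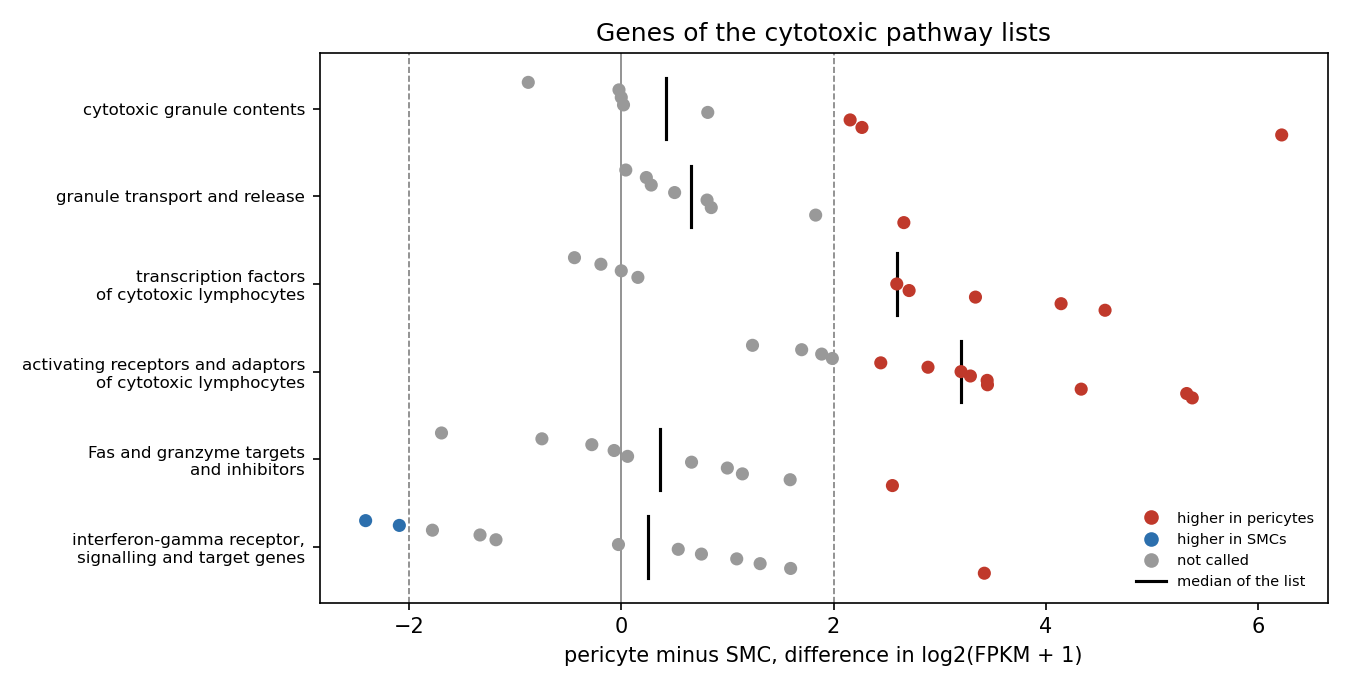
Difference between pericyte and SMC libraries in log2(FPKM + 1) for each tested gene of 6 lists around the effector genes, coloured by the limma call, with the median of each list as a black line and the difference of 2 in either direction as dashed lines. The receptor list lies wholly above 0, at a median of 3.20, and blue points occur only in the interferon-gamma list.

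Of 10 genes for Fas, its signalling, granzyme targets and granzyme inhibitors, 1 was called higher in pericytes and 0 in SMCs (against 3.24% and 2.66% of all genes), with a median difference of 0.36. Fas, the receptor for Fas ligand, had 34.97, 64.1, 30.9 and 53.6 FPKM in pericyte replicates 1 to 4 and 60.4, 62.6, 79.5 and 102 FPKM in SMC replicates 1 to 4. Its groups overlapped (difference -0.75, standard error 0.28, limma q = 0.11). The granzyme B substrate gene Bid had 10.7 to 21.4 FPKM in pericyte libraries and 3.53 to 5.52 FPKM in SMC libraries (difference 1.59, limma q = 0.0028). Casp8, the initiator caspase of Fas signalling, had a difference of 0.999 (limma q = 9.2e-04). Among inhibitors of the serpin family, Serpinb9, which blocks granzyme B, had 43.6 to 131 FPKM against 23.7 to 41.4 FPKM (difference 1.14, limma q = 0.065). Its relatives went in opposite directions. Serpinb6b had 22.6 to 48.2 FPKM in pericyte libraries and 2.99 to 8.08 FPKM in SMC libraries (difference 2.55, limma q = 0.0012), and Serpinb6a had 44.0 to 64.2 FPKM and 149 to 175 FPKM (difference -1.69, limma q = 1.4e-04).

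Genes of the interferon-gamma response were split between the groups. Of 12 tested genes 1 was called higher in pericytes and 2 in SMCs (all genes, 3.24% and 2.66%), with a median difference of 0.25, and 6 and 4 genes had a q value below 0.05 in these directions, against 10.6% and 11.2% of all genes. On the receptor side, Ifngr1 had 621 to 836 FPKM in pericyte libraries and 169 to 302 FPKM in SMC libraries (difference 1.60, limma q = 0.0025), and Ifngr2 had 42.8 to 52.6 FPKM and 27.98 to 40.3 FPKM (difference 0.54, limma q = 0.020). Both receptor chains were thus measured in every library, those with Ifng below 1 FPKM included. The signalling gene Jak2 was also higher in every pericyte library, by 0.76 (limma q = 0.0016). Jak1 overlapped through pericyte replicate 2, with 269, 105, 317 and 290 FPKM in pericyte replicates 1 to 4 against 65.1 to 120 FPKM in SMC libraries (difference 1.31, limma q = 0.047).

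Target genes of interferon-gamma went mainly the other way from Ifng itself. Cxcl9, a chemokine that attracts T cells and NK cells, had 1.37, 1.34, 0.620 and 1.80 FPKM in pericyte replicates 1 to 4 and 7.03, 13.8, 10.2 and 14.1 FPKM in SMC replicates 1 to 4 (difference -2.41, standard error 0.25, limma q = 6.3e-04). Cxcl10, a chemokine for the same receptor, had 25.1, 41.0, 51.8 and 42.3 FPKM in pericyte replicates and 114, 144, 219 and 225 FPKM in SMC replicates (difference -2.09, limma q = 0.0024). Its difference was -1.89 without pericyte replicate 1, -1.97 without SMC replicate 3 and -1.95 without SMC replicate 4, each just short of a call. Gbp2, a guanylate-binding protein gene, had 17.8 to 23.2 FPKM in pericyte libraries and 48.1 to 101 FPKM in SMC libraries (difference -1.78, limma q = 0.0017, or -2.02 with TPM scaling). Irf1, a transcription factor gene switched on by interferon-gamma, had 235 to 332 FPKM and 687 to 806 FPKM (difference -1.33, limma q = 3.0e-04). In all 4 genes the lowest SMC library exceeded the highest pericyte library, as in 12.5% of all genes. Ciita, the regulator of MHC class II genes and also active without interferon in B cells, was the exception, at 12.5 to 19.1 FPKM in pericyte libraries and 0.145 to 0.867 FPKM in SMC libraries (difference 3.42, limma q = 4.2e-05). Nos2, the inducible nitric oxide synthase gene, had 0.0352 to 1.58 FPKM and 0.836 to 5.01 FPKM (limma q = 0.11), and Socs1, a feedback inhibitor, had a difference of -0.03 (limma q = 0.99). Interferons of other types also induce several of these genes.

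**Figure D5:**
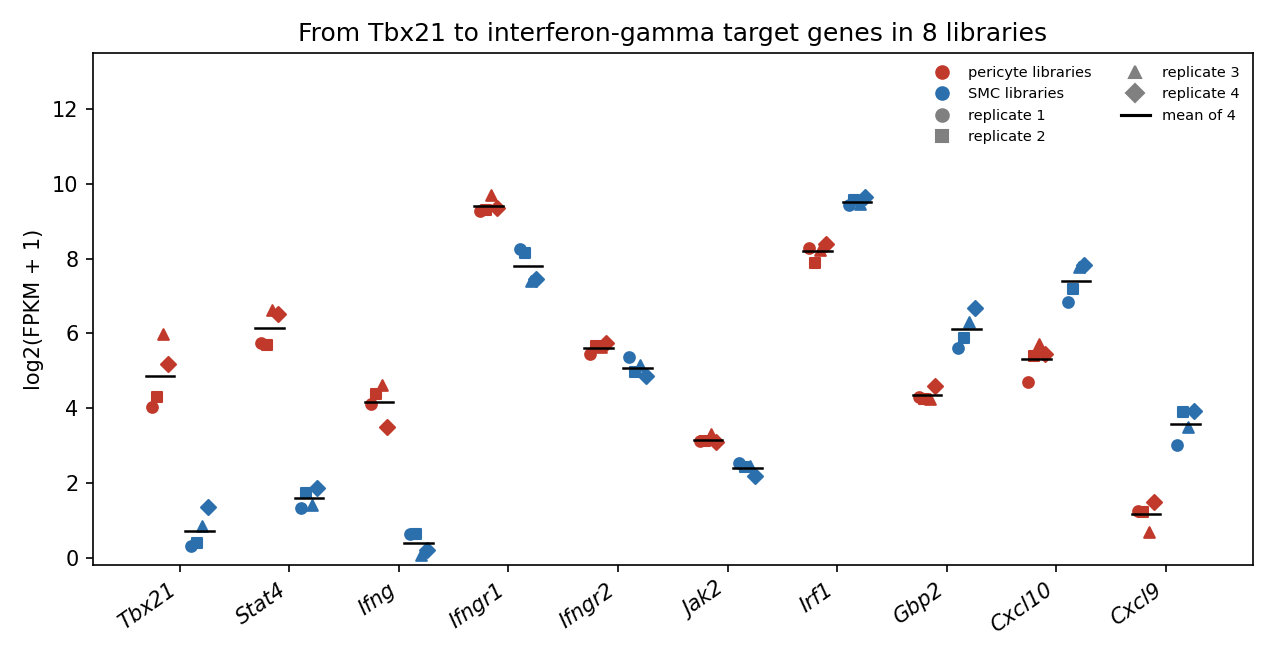
Levels, as log2(FPKM + 1), of Tbx21, Stat4, Ifng, the receptor and signalling genes Ifngr1, Ifngr2 and Jak2, and the target genes Irf1, Gbp2, Cxcl10 and Cxcl9 in 4 pericyte libraries (red) and 4 SMC libraries (blue), with symbols for replicates and lines for means. Pericyte libraries are higher from Tbx21 to Jak2, and SMC libraries are higher for the 4 target genes on the right.

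Neighbouring genes on the chromosome, taken as the nearest listed genes annotated as protein-coding, were read as local comparisons. The nearest genes on either side of Prf1 (Adamts14 and Rpl27a-ps1) and of Fasl (Tnfsf18 and AI848100) were not called. Cdc34, which ends 626 bases before Gzmm, had 15.2 to 50.0 FPKM in pericyte libraries and 7.996 to 15.2 FPKM in SMC libraries (difference 1.49, limma q = 0.024). Bsg, which starts 9097 bases after Gzmm, had 221 to 509 FPKM in pericyte libraries and 590 to 718 FPKM in SMC libraries (difference -1.11, limma q = 0.019). Lim2 and Cldnd2, on either side of Nkg7, reached at most 0.746 FPKM in any library. Of these nearest genes on either side of the 9 genes, only Gzmc was called, and those at 0 in every library were not tested. Over all genes tested, 3.24% were called higher in pericytes and 2.66% in SMCs, so no result about neighbours is read from this call. Esm1, which overlaps Gzmk and is not among them, was called higher in SMCs (difference -2.29, limma q = 9.3e-05).

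The genes whose profiles lay closest to the effector genes were found by the mean absolute difference, over 8 libraries, from the median log2(FPKM + 1) of the 9 genes. That median was 4.59 to 5.26 in pericyte libraries and 0.36 to 0.79 in SMC libraries. The nearest was Sh2d1a, the gene of the lymphocyte adaptor SAP, at a mean absolute difference of 0.17. It was followed by the inhibitory receptor gene Tigit (0.19), the lymphocyte GTPase gene Gimap7 (0.28), the T cell receptor alpha segment Trav16 (0.30) and 5830405N20Rik (0.31). Sh2d1a had 31.5 to 54.1 FPKM in pericyte libraries and 0.365 to 0.914 FPKM in SMC libraries. Reads of Trav16 can be shared with near-identical segments, so its value is uncertain. By the largest rather than the mean difference, 3 of these 5 genes were among the nearest 5.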

How the data were processed

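RNA from 4 pericyte and 4 SMC samples was amplified with a SMART-Seq low-input kit and built into Nextera XT libraries. The authors' alignment used Bowtie2, TopHat and NCBI Build 37, and they deposited FPKM for 37979 genes, without a log transform or low-value filter. The program that computed FPKM and its use of strand are not given in the sources used here. Samples were grouped by cell type and matched to columns by title.

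FPKM are not counts, so the reads behind a value are unknown and no counting interval is given. Values under 0.3 FPKM gave relative depths of 0.868 to 1.07, and 12713 to 13194 genes reached 1 FPKM in a library. Leaving aside 10565 genes at 0 throughout, 27414 were tested as log2(FPKM + 1) with limma 3.58.1 in R 4.3.3, without covariates. On simulated data for pericytes against SMCs, 171 of 200 genes changed by 3 log2 units were called, and 1 unchanged gene.

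The 9 members and all lists were chosen with earlier results of these data known. Named genes were the members, markers, the 5 nearest profiles and genes whose role describes a list. Of the called genes of each list, up to 4 with the largest differences in each direction were also named. Genes named as chromosomal neighbours, Esm1 and the markers Mpo, Elane, Dcn and Mrc1 were chosen after their values were seen. Zfp683, a listed factor, matched no symbol. Some listed genes are counted in their lists but not reported here by name. Ciita has 2 rows, and the one with the higher mean was used. Positions are from GENCODE M1 and promoter sequences from RefSeq (GRCm38.p6 windows). As alternatives, the pseudocount was set to 0.1, genes were required to reach 1 FPKM in 4 or more libraries or were not filtered, and the fit was repeated with quantile, median-ratio and TPM scaling, the replicate block, a covariate for replicates 1 and 2 against 3 and 4, an intensity trend, or without each library. Python 3.11.15 made the figures.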

Additional observations from a re-analysis of the deposited data

Results flagged for a closer look

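In SMC libraries 3 genes had a replicate far from the other 3, by Dixon's ratio of the gap to the range of log2(FPKM + 1) (critical value 0.83 for 4 samples), each in replicate 3. The ratio was 1 for Gzmk, which was listed at 0 in the other SMC libraries. It was 0.857 for Ctsw, whose SMC replicate 3 was low at 0.567 FPKM, and 0.868 for Stxbp2, whose SMC replicate 3 was high at 14.4 FPKM. Chance alone gives about 1 such group in 20, and 62 groups of libraries were examined, covering the 9 effector genes and the called genes of the 6 lists.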

How the results depend on the processing

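The 8 called effector genes were called higher in pericytes in all 136 combinations of gene and alternative, with limma q values up to 0.0047, and 0 effector genes were called higher in SMCs. Gzmk joined them only with a pseudocount of 0.1 (difference 3.76), and could not be fitted with the filter at 1 FPKM, which it does not pass. Its q value was 0.084 without a filter, and 6 of 8 fits with a library left out had a q value of at least 0.05. With the replicate number as a block, 8 effector genes were called as without it, and no call in the 6 lists changed, although Ifngr2, Jak1 and Unc13d, whose differences were under 2, had limma q values of 0.082, 0.060 and 0.051. Of the cell type markers, 5 gained a call with the block and 0 lost one, among them Pdgfrb, higher in SMCs (limma q = 0.0060), and Cd4, higher in pericytes (limma q = 0.032). Same-numbered libraries deviated together with correlations of 0.079 to 0.474 over 13612 genes, 3 of 4 above 0.1, and 5 of 8 libraries correlated best with their own number, so the numbers are not taken to pair samples. With the block 881 genes of all were called higher in pericytes, against 888. With a pseudocount of 0.1, 1328 genes were called higher in pericytes and 1421 in SMCs. Over genes averaging 1 FPKM or more, the median difference was 0.05, and -0.16 with TPM scaling, which also called 3 interferon-gamma list genes higher in SMCs.

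Calls higher in pericytes numbered 1 to 2 for granule transport with libraries left out, and calls higher in SMCs 1 to 2 for the interferon-gamma list, where Cxcl10 was lost. The cause was not tested. With the largest difference as the measure of likeness, 3 of 5 nearest genes stayed. The order of levels by group mean was the same with TPM scaling. That scaling keeps the order of genes within each library, so this outcome was nearly fixed in advance. The reads behind the SMC values below 1 FPKM are unknown.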
